A study of Bos taurus with 27 samples.

Results

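Among 116933 loci assembled from RNA of bovine embryos, 514 were higher in parthenotes than in both groups of in vitro fertilised (IVF) embryos. They were selected on measured values: the median over parthenotes was at least 2 FPKM and at least 2 times both the median over 8-cell IVF and the median over late 8-cell IVF embryos. A locus is an assembled stretch of transcription with a number of its own, its value is the sum over its transcripts, and loci of 20 or more transcripts were left out, of which 0 met the values. FPKM counts sequenced fragments, divided by the length of the transcript and the size of the library. The parthenote level alone was reached by 10273 loci of fewer than 20 transcripts, called the eligible loci here, and the 514 were 5.003% of them.

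The study sequenced RNA from 27 libraries of embryos cultured at 38.5 C, made with a SMART-Seq kit for very small inputs. There were 8 libraries of 8-cell IVF embryos, 8 of late 8-cell IVF embryos, and 11 of 8-cell parthenotes. Both IVF groups were BosTarus_x_BosIndicus_F1 crosses, as the labels spell them, and the parthenotes were Bos taurus, so breed and parthenogenesis cannot be told apart in any comparison of parthenotes with IVF embryos. The names of the 8-cell IVF libraries begin with 18062, and those of the late 8-cell IVF libraries and the parthenotes with 19058. What this number stands for is not said. The number and the group therefore cannot be told apart between parthenotes and 8-cell IVF, or between the IVF groups, while parthenotes and late embryos share a number. The parthenotes are labelled 8-cell and not late 8-cell. Against late embryos, stage therefore cannot be told apart from breed and parthenogenesis either. The labels do not say how parthenotes were activated, whether a library is 1 embryo or a pool, or whether cultures differed between replicates, so the spread behind a p-value is that between libraries and may be technical.

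A parthenote is an embryo from an oocyte activated without sperm. Its chromosomes are all maternal, so genes expressed from the paternal copy alone have no active copy, and it carries no Y chromosome. In cattle the embryo relies at first on RNA and protein stored in the oocyte, and these stores are degraded while the embryonic genome becomes active around the 8-cell to 16-cell stage. A higher level in a parthenote can thus belong to stored RNA that is still present or to RNA that is newly made, which a single measurement of level does not separate. The table gives locus numbers without gene names, none of them matched a reference table, and the marker genes of embryonic cell types could not be looked up. The loci are therefore described by their level, their pattern over libraries, their numbering and their assembly.

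The 514 loci were mostly low. Their parthenote medians ran from 2.01 to 2783 FPKM with a median of 4.94 (quartiles 2.94 and 12.1). There were 259 loci (50.4%) at 2 to 5 FPKM, 166 (32.3%) at 5 to 20 FPKM, 61 (11.9%) at 20 to 100 FPKM and 28 (5.45%) at 100 FPKM or more. The same loci had a median of 1.93 FPKM over the 8-cell IVF medians (quartiles 0.984 and 4.92) and 1.02 FPKM over the late medians (quartiles 0.352 and 2.62). By construction the parthenote level was the highest of the 3, and these figures describe how the loci were chosen.

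The excess was small for most loci and large for few. The ratio of the parthenote median to the higher IVF median had a median of 2.45, and 272 loci (52.9%) lay between 2 and 2.5. A ratio of 3 was reached by 136 loci and a ratio of 5 by 55, counting 9 loci with both IVF medians at 0. Those 9 have no finite ratio and are left out of the median. The limit fell in a dense region: 180 loci had a ratio of 1.8 to 2 and stayed out, and 142 of the 514 had a ratio of 2 to 2.2. The locus just inside had 5.01 FPKM in parthenotes against 2.5025 in the higher IVF group, a ratio of 2.003, and the locus just outside had 4.44 against 2.23, a ratio of 1.997. The 8-cell IVF median was the higher of the IVF medians at 421 loci, the late median at 84, and they were equal at 9.

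Together the 514 loci made up 5.42% ± 1.48 (SD, n = 11) of a parthenote library's FPKM sum, with a range of 3.56% to 9.04%. In 8-cell IVF libraries the share was 2.103% ± 0.514 (SD, n = 8; range 1.38% to 2.80%), and in late libraries it was 1.44% ± 1.28 (SD, n = 8; range 0.213% to 4.02%). Parthenote replicate 4 was the highest of all libraries and late 8-cell IVF replicate 1 was the highest IVF library, above parthenote replicate 1. Without late replicate 1 the late share was 1.07% ± 0.806 (SD, n = 7), and its highest value was 2.32%. At least 1 FPKM was reached by 469 ± 22.1 of the 514 loci in parthenotes (SD, n = 11), by 375.5 ± 38.0 in 8-cell IVF (SD, n = 8) and by 262 ± 83.0 in late embryos (SD, n = 8). In late embryos the count ran from 138 to 367 and was 254 ± 85.8 without replicate 1 (SD, n = 7). Of the 514 loci 204 were above 0 in all 27 libraries.

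**Figure D1:**
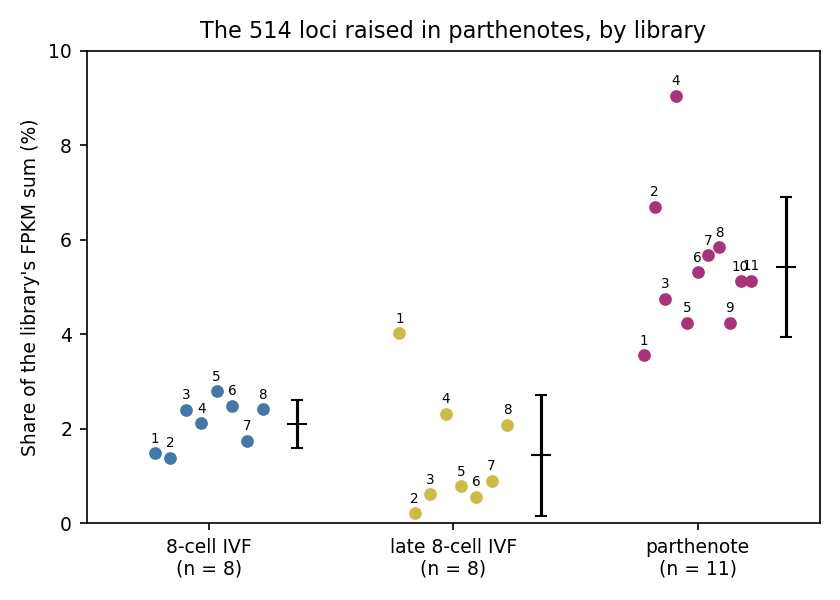
Share of each library's FPKM sum (percent, vertical axis) held by the 514 loci raised in parthenotes, by group, with 1 point per library labelled by replicate number and the mean ± SD as a bar at the right of each group. The parthenotes lie between 3.56% and 9.04%, the 8-cell IVF libraries between 1.38% and 2.80%, and late replicate 1 at 4.02% stands above the other late libraries.

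Libraries differed in depth. FPKM hides the number of reads, and total depth is unknown, but low values move in steps of whole reads and gave a depth relative to the median library. Relative depth was 0.779 ± 0.0663 in 8-cell IVF (SD, n = 8), 1.15 ± 0.432 in late embryos (SD, n = 8) and 1.04 ± 0.210 in parthenotes (SD, n = 11), so the 8-cell IVF libraries were shallower on average than the parthenotes. The shallowest library was late replicate 6 at 0.337. It was also the library in which most of the 514 loci were at 0, namely 202, against 1 to 42 in parthenotes and 15 to 72 in 8-cell IVF libraries. Depth and zeros did not run together throughout: late replicate 2, at a relative depth of 1.64, had 158 of the loci at 0, and late replicate 1, at 0.819, had 147. The part of depth in the selection was not tested.

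Because the 514 loci were chosen on all libraries, a test on those libraries would repeat the choice. The rule was therefore applied to the odd-numbered replicates alone (4 libraries per IVF group and 6 parthenotes) and the loci it found were measured in the even-numbered replicates (4 per IVF group and 5 parthenotes), and the reverse. The odd replicates gave 588 loci and the even replicates 795, of which 198 were found in both, 33.7% of the first list and 24.9% of the second. Among all loci that passed the filter of 1 FPKM in at least 3 choosing libraries, 3.81% of 19835 met the rule in the even replicates and 2.9% of 19762 met it in the odd replicates. Among the eligible loci of each choosing set the shares were 5.02% and 4.19%. Of the 514 loci, 314 were in the odd list, 345 in the even list, 187 in both and 42 in neither.

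Loci chosen in one set of libraries were also higher on balance in parthenotes than in 8-cell IVF embryos in the other set. For the odd list the median log2 fold change in the even replicates was 0.69 on the log2(FPKM + 1) scale, against -0.05 for the eligible loci and 0.02 for all loci tested, and 481 of 588 loci (81.8%) were above 0, against 46.3% of the eligible loci. For the even list the median in the odd replicates was 0.59 against 0.08 for the eligible loci, and 657 of 795 loci (82.6%) were above 0, against 57.6%. Few single loci passed the test. With limma and Benjamini-Hochberg adjustment over all loci at a threshold of 0.05, 0 of the 588 were called higher, where 0.0101% of all loci were called, and 1 of the 795 was called, where 0.00506% of all were. Before adjustment, 172 of the 588 loci were higher at a limma p under 0.05, against 6.55% of the eligible loci, and 232 of the 795, against 8.6%.

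One library decided the count of calls in the odd replicates. Without late 8-cell IVF replicate 1, which enters the shared estimate of the spread but not the fold change, limma called 87 of the 795 loci higher in parthenotes than in 8-cell IVF, among 223 of all 19762 loci (1.13%; 1.97% of the eligible loci). The median fold change of the list is unaffected by that library. In the even replicates, which do not hold late replicate 1, the count was 0.

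Against late 8-cell IVF embryos the median fold changes of the same lists were larger, and so were those of the eligible loci. In the even replicates 405 of the 588 loci of the odd list (68.9%) were called higher in parthenotes by limma at an adjusted p under 0.05, where 32.4% of all loci and 45.4% of the eligible loci were called higher. The median log2 fold change was 1.49, against 0.86 for the eligible loci. In the odd replicates 307 of the 795 loci of the even list (38.6%) were called higher, where 24.9% of all loci and 34.7% of the eligible loci were. The median log2 fold change was 0.89 against 0.51. Without late replicate 1, 422 loci of the list (53.1%) were called, where 36.5% of all and 48.2% of the eligible loci were. The excess of called loci in this list was small and did not hold at each setting: without the filter 15.5% of the list and 17.5% of the eligible loci were called, and without late replicate 7 the shares were 23.5% and 24.4%. For the list's loci chosen at 2 to 5 FPKM they were 29.5% and 30.4%. The eligible loci as a whole thus lay above 0 in this contrast, and the lists lay further above it. The fold change against late embryos and that against 8-cell IVF share the parthenote libraries.

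Seen as a share of the library, the odd list took up 5.08% ± 1.73 (SD, n = 5) of the even-numbered parthenotes, 2.002% ± 0.344 (SD, n = 4) of 8-cell IVF and 0.922% ± 0.709 (SD, n = 4) of late embryos. The lowest of these parthenotes, at 3.61%, lay above the highest IVF library at 2.29%. The even list held 3.71% ± 0.748 (SD, n = 6) of the odd-numbered parthenotes, 1.99% ± 0.427 (SD, n = 4) of 8-cell IVF and 1.16% ± 0.783 (SD, n = 4) of late embryos. Here too the lowest parthenote, at 2.85%, lay above the highest IVF library, at 2.49%. The share held by the eligible loci was not computed for comparison. A share is a sum, so a few abundant loci can carry much of it.

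**Figure D2:**
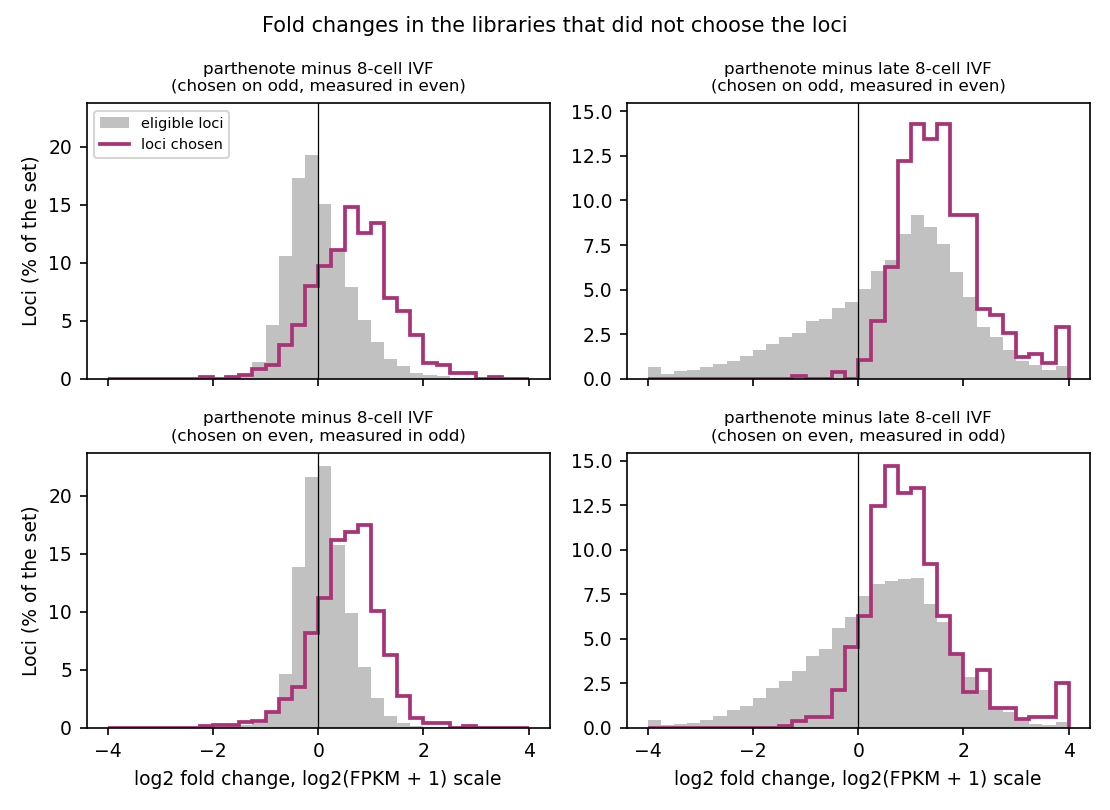
Distribution of log2 fold changes (horizontal axis, log2(FPKM + 1) scale, values beyond 4 placed in the outermost bin) for loci chosen by the rule (line) and for all eligible loci (grey), as a percent of each set (vertical axis), always in libraries that did not choose the loci. The chosen loci lie to the right of the eligible loci in all 4 panels, with medians of 0.69 against -0.05 and 0.59 against 0.08 for parthenote minus 8-cell IVF, and of 1.49 against 0.86 and 0.89 against 0.51 for parthenote minus late 8-cell IVF.

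The excess over 8-cell IVF was larger for abundant loci in one direction of the check and not clearly in the other. In the odd list the median log2 fold change in the even replicates was 0.57 for 347 loci chosen at 2 to 5 FPKM, 0.80 for 174 loci at 5 to 20 FPKM, 1.37 for 48 loci at 20 to 100 FPKM and 1.54 for 19 loci at 100 FPKM or more. In the even list the medians in the odd replicates were 0.44, 0.75, 0.77 and 0.70, over 417, 260, 85 and 33 loci. The added 1 FPKM shrinks the fold changes of low loci, which bears on the lowest class in both.

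The rule set no direction between the IVF groups, and here the lists had fewer calls than the eligible loci in both directions, with medians close to theirs. The late median was at most 0.5 times the 8-cell IVF median at 257 of the 514 loci (50%), against 45.5% of the eligible loci, and at most 0.1 times at 83 (16.1%), against 11.04%. A rise was rare: the late median was at least 2 times the 8-cell IVF median at 16 loci (3.11%), against 18.03% of the eligible loci, but the rule holds the late median under 0.5 times the parthenote median and so limits such rises. In libraries that did not choose the loci, limma called 183 of the 588 loci of the odd list (31.1%) lower in late than in 8-cell IVF embryos, where 29.5% of all and 41.2% of the eligible loci were called lower, and 1 higher, where 17.2% and 13.7% were. For the even list 120 of 795 loci (15.1%) were lower, where 19.2% of all and 25.7% of the eligible were, and 35 were higher (4.40%), where 16.9% and 14.2% were. The shares called lower lay below those of the eligible loci, and the median log2 fold changes of -0.86 and -0.34 lay close to those of the eligible loci at -0.77 and -0.36. The rule also holds the 8-cell IVF median to at most 0.5 times the parthenote median. The part of this limit in the shares called lower was not tested. Without late replicate 1, 212 of the 795 loci (26.7%) were called lower, where 31.9% of all and 42.3% of the eligible loci were.

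The value in late 8-cell IVF replicate 1 was used to divide the 514 loci into 2 kinds. Zeros were not particular to this library: 158 of the 514 loci were at 0 in late replicate 2 and 202 in late replicate 6. The same division was not made on the other late libraries. The counts that follow are for late replicate 1. The value there was under 0.1 times the parthenote median at 163 loci (31.7%), of which 147 were at 0. The other 351 loci (68.3%) were present there, mostly at parthenote levels, and 250 of the 514 had values of 0.5 to 2 times the parthenote median. Such values were more common among the eligible loci. Of these, 33.4% lay at 0.5 to 1 times and 40.6% at 1 to 2 times, against 21.2% and 27.4% of the 514. Among the eligible loci 521 (5.07%) were under 0.1 times the parthenote median in this library. Members of the set made up 31.3% of those 521 and 3.60% of the other eligible loci. This division was made after the values were seen and is a description, but the even list was chosen without late replicate 1, and there 324 of 795 loci (40.8%) were under 0.1 times their parthenote median in it, against 6.93% of 10328 eligible loci.

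**Figure D3:**
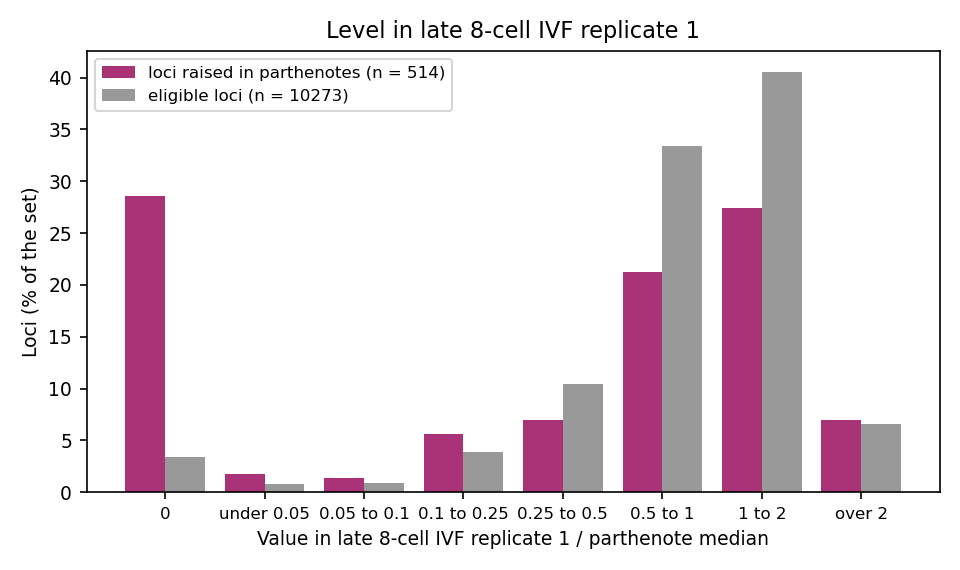
Value in late 8-cell IVF replicate 1 divided by the parthenote median (horizontal axis, in classes) for the 514 loci raised in parthenotes and for the 10273 eligible loci, as a percent of each set (vertical axis). Of the 514 loci 28.6% were at 0 in this library, against 3.43% of the eligible loci. The classes of 0.5 to 1 and 1 to 2 hold 21.2% and 27.4% of the 514, against 33.4% and 40.6% of the eligible loci.

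The 163 loci low in late replicate 1 varied strongly within every group. Their coefficient of variation over the 11 parthenotes had a median of 87.6%, and 92 of them (56.4%) were at 0 in at least 1 parthenote. Relative to the parthenote median, their median value was 1.27 to 1.39 in parthenote replicates 2, 7, 8, 10 and 11, 1 in replicate 3, and 0.349 to 0.660 in replicates 1, 4, 5, 6 and 9. Of these loci 41 were at 0 in replicate 1, 29 in replicate 5 and 32 in replicate 9. The relative depths of those libraries were 0.784, 0.682 and 1.18. The same loci varied among 8-cell IVF libraries, from a relative value of 0.0684 in replicate 2 to 0.684 in replicate 5. They held 2.09% ± 1.12 (SD, n = 11) of the parthenote FPKM sums, 0.720% ± 0.354 (SD, n = 8) of 8-cell IVF and 0.385% ± 0.412 (SD, n = 8) of late embryos.

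The 351 loci present in late replicate 1 were steadier and were led by another parthenote. Their coefficient of variation over parthenotes had a median of 60.6%, and 14 of them (3.99%) were at 0 in at least 1 parthenote. Parthenote replicate 4 was the highest parthenote at 208 of the 351 (59.3%), with a relative value of 2.03, against 11 of the 163 loci of the first kind. The other 10 parthenotes had relative values of 0.656 to 1.23, and late replicate 1 had 1.02, inside that range. The remaining 7 late libraries had 0.04997 to 0.408. These loci held 3.33% ± 1.49 (SD, n = 11) of the parthenote FPKM sums, 1.38% ± 0.228 (SD, n = 8) of 8-cell IVF, and 0.628% ± 0.415 (SD, n = 7) of late embryos without replicate 1, which itself stood at 4.013%. When parthenote replicate 4 was left out, 524 loci met the rule, 439 of them among the 514. When late replicate 1 was left out, 530 did, 509 of them shared.

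**Figure D4:**
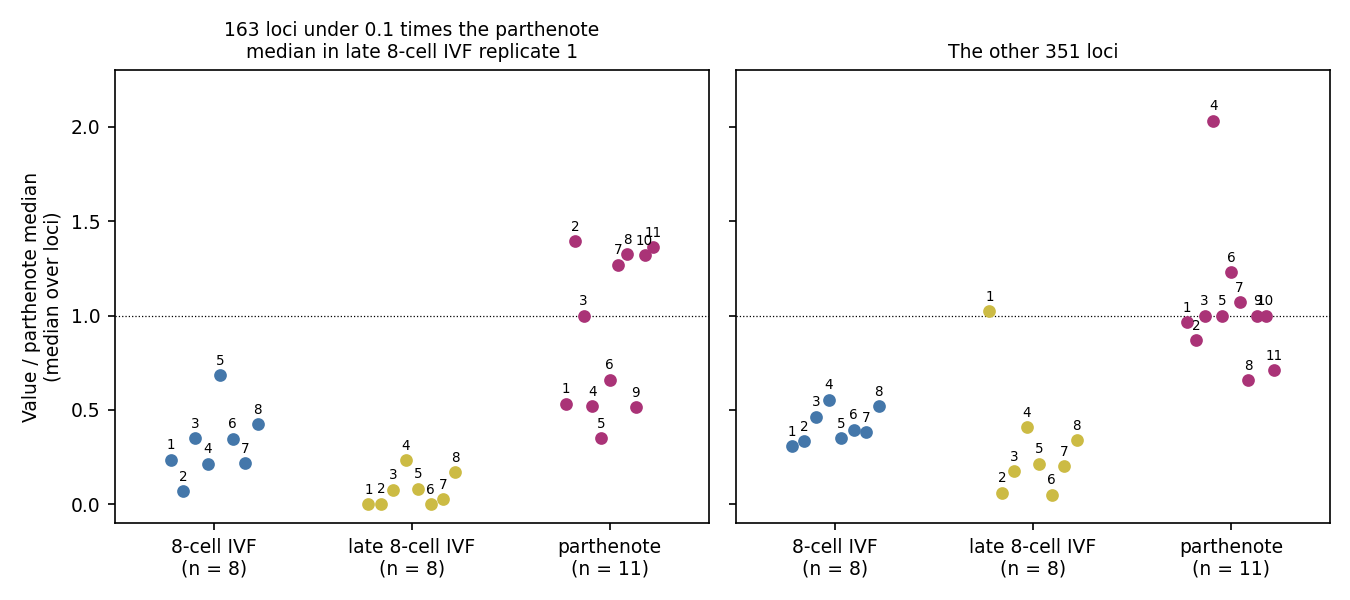
Value in each library divided by the parthenote median (vertical axis, median over loci), for the 163 loci under 0.1 times the parthenote median in late 8-cell IVF replicate 1 and for the other 351, with 1 point per library labelled by replicate number and a dotted line at 1. At the left the parthenotes spread from 0.349 to 1.39, and at the right parthenote replicate 4 stands at 2.03 and late replicate 1 at 1.02, above the other late libraries.

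Members varied more than the eligible loci over the parthenotes whose medians chose them. The spread was not compared in libraries that did not choose the loci, so the figures describe the set only. Across the eligible loci the coefficient of variation over parthenotes had a median of 39.3%, against 68.7% for the 514, and this held in each level class, from 73.7% against 46.1% at 2 to 5 FPKM to 59.3% against 31.7% at 100 FPKM or more. In the class at 100 FPKM or more, 19 of the 28 members were low in late replicate 1. In the even replicates, which do not hold late replicate 1, the 138 loci of the odd list that were low in it had a median log2 fold change of 0.97 for parthenote minus 8-cell IVF and -0.50 for late minus 8-cell IVF. The other 450 had 0.65 and -0.97. In these libraries late minus 8-cell IVF thus lay nearer to 0 for the loci low in late replicate 1. Of the 138 loci 14 (10.1%) were called lower in late embryos by limma, against 169 of the 450 (37.6%). The difference between the kinds was not tested. The 514 loci, over all libraries, went the other way. The late median was at most 0.1 times the 8-cell IVF median at 42.3% of the 163 low loci and 3.99% of the 351. The division itself used late replicate 1. Without that library, the 163 had a mean relative value of 0.0849 in late embryos and 0.318 in 8-cell IVF. The 351 had 0.208 and 0.413.

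Loci of the set often had neighbouring numbers. Numbers follow the assembly, whose coordinates are not analysed here, so a small difference in number is at most a hint of nearness, and neighbours may be pieces of 1 gene. Of the 514 loci 128 (24.9%) had another of the set within 5 numbers. Among the eligible loci within 5 numbers of another member, 18.7% were themselves members, against 4.03% of the rest. There were 18 runs of 3 or more members whose numbers followed each other by at most 10, and they held 72 loci (14.01%). In 11 runs every locus was low in late replicate 1, in 5 none was, and 2 were mixed. All 5 runs with no such locus were highest in parthenote replicate 4, and 8 of the 11 runs of low loci were highest in parthenote replicate 2 or 8. Runs therefore went together by kind, and 31.3% of the loci low in late replicate 1 lay in runs, against 5.98% of the others.

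The longest run held 8 of the 9 eligible loci in its range of numbers. Its summed level was 322 to 1759 FPKM in parthenotes, with a median of 730 and the highest value in replicate 2. In 8-cell IVF it was 118 to 787 FPKM with a median of 262. In late embryos it was 0 to 193 FPKM with a median of 42.6, and all 8 loci were at 0 in late replicate 1. The ranges of parthenotes and 8-cell IVF overlapped, whereas every parthenote lay above every late library. The loci of the run were chosen on these same libraries, so the ranges describe the run only.

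The named loci, 2 per list, follow from a rule: for each list, the locus with the highest ratio of parthenotes to the higher IVF group and the locus with the lowest ratio of late to 8-cell IVF embryos, among loci of at least 10 FPKM in the choosing parthenotes. The function of these loci is not known from the table. MSTRG.29106, of 3 transcripts, was named for its low late level in the odd replicates and lies in the longest run. In the even-numbered parthenotes it stood at 417, 191, 110.0, 208 and 212 FPKM. In the even-numbered 8-cell IVF libraries it stood at 21.5, 46.2, 124 and 76.9 FPKM, and in the late libraries at 0.716, 46.8, 1.29 and 16.3 FPKM. Parthenotes and 8-cell IVF overlapped through 1 library of each, and all parthenotes lay above all late libraries.

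For MSTRG.29106 the log2 fold change of parthenote over late embryos was 4.79 (SE 0.84, limma, adjusted p = 0.000526). Over 8-cell IVF it was 1.88 (SE 0.84), which did not pass (limma, adjusted p = 0.454). Late minus 8-cell IVF was -2.91 on the log2 scale (SE 0.89, limma, adjusted p = 0.015), and this call was lost without late replicate 2 (-2.20, limma, adjusted p = 0.0529) and without late replicate 6 (-2.33, limma, adjusted p = 0.0541). Over all libraries its mean was 190 FPKM ± 97.7 (SD, n = 11) in parthenotes, 62.5 ± 36.2 (SD, n = 8) in 8-cell IVF and 9.73 ± 16.2 (SD, n = 8) in late embryos. It was at 0 in late replicate 1.

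MSTRG.8058, of 1 transcript, was named for its low late level in the even replicates. In the odd-numbered parthenotes it stood at 63.3, 107, 85.9, 94.1, 55.0 and 95.8 FPKM, and in 8-cell IVF at 37.9, 27.7, 36.5 and 58.2 FPKM. The odd-numbered late libraries gave 201 FPKM in replicate 1 and 6.26, 11.3 and 19.3 FPKM in the others. The library labelled late replicate 1 was thus above all parthenotes while the other late libraries were below all 8-cell IVF libraries. The log2 fold change of parthenote over late embryos was 1.74 (SE 0.66, limma, adjusted p = 0.0443), and leaving out any 1 of 12 libraries in turn ended that call, with adjusted p-values of 0.0519 to 0.18 by limma. Without late replicate 1, which keeps the call, it was 2.76. Over 8-cell IVF it was 1.052 (SE 0.66, limma, adjusted p = 0.777). Late minus 8-cell IVF was -0.69 (limma, adjusted p = 0.461) with late replicate 1 and -1.70 without it (limma, adjusted p = 0.000848).

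The remaining named loci had the highest ratios of their lists. MSTRG.178, of 1 transcript, was chosen on the even replicates with a parthenote median of 12.95 FPKM and both IVF medians at 0. In the odd-numbered parthenotes it stood at 4.12, 15.5, 0, 0.890, 0 and 9.49 FPKM, in 8-cell IVF at 0.297, 0, 1.46 and 1.03 FPKM, and in late embryos at 0 in 3 libraries and 7.70 FPKM in replicate 3. Over all 11 parthenotes its median was 9.49 FPKM, and 7 of them lay above every 8-cell IVF library. These figures include the even-numbered libraries that chose the locus, so they describe it only. In the odd replicates the groups overlapped, and neither log2 fold change passed: 1.11 (SE 0.82, limma, adjusted p = 0.853) over 8-cell IVF and 1.01 (SE 0.82, limma, adjusted p = 0.322) over late embryos. MSTRG.106993, of 5 transcripts, was chosen on the odd replicates with a parthenote median of 11.002 FPKM against 0.326 in 8-cell IVF. In the even-numbered parthenotes it stood at 0.239 to 3.86 FPKM in 4 libraries and at 145 FPKM in replicate 8, whereas 8-cell IVF held 0, 27.4, 1.18 and 23.3 FPKM. Its log2 fold change over 8-cell IVF there was -0.17 (SE 1.33, limma, adjusted p = 0.979), the sign opposite to the choice, and over all libraries it did not meet the rule.

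**Figure D5:**
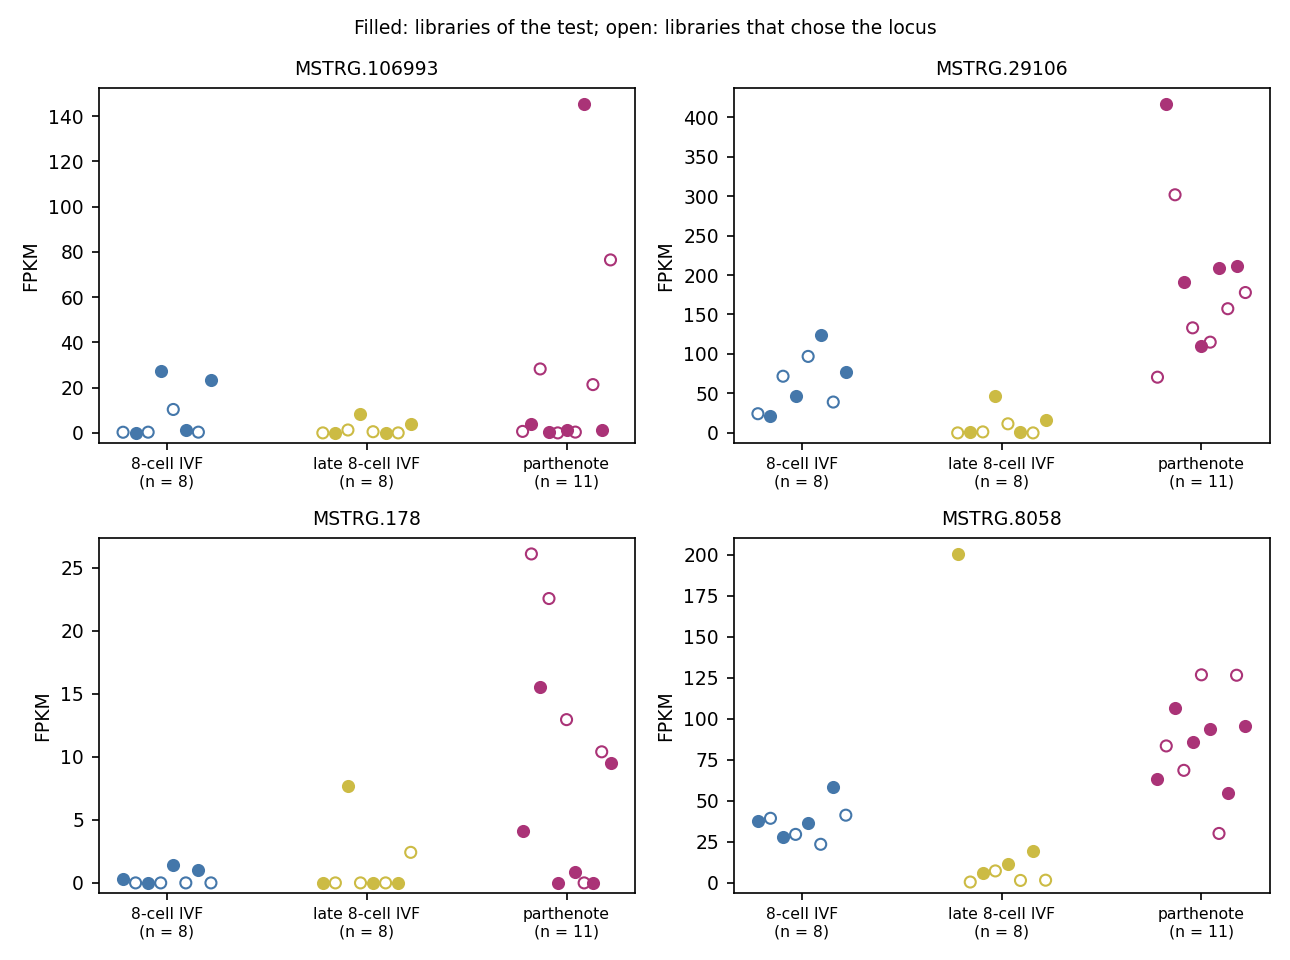
FPKM (vertical axis) of the 4 named loci in each of the 27 libraries by group, filled where the library served the test and open where it chose the locus. MSTRG.29106 lies at 70.6 to 417 FPKM in parthenotes and at 0 to 46.8 FPKM in late embryos, MSTRG.8058 shows late replicate 1 at 201 FPKM, and MSTRG.178 and MSTRG.106993 reach high values in a part of the parthenotes only.

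Few loci of the set separated the groups without overlap. Every parthenote lay above every 8-cell IVF library at 33 of the 514 loci, where 0.896% of the eligible loci did so, and above every late library at 28, where 3.95% did. Both held at 3 loci, against 0.0389% of the eligible loci, and at 15 without late replicate 1, against 0.243%. The rule used the same contrasts, so these counts describe the set only. The highest of the 3 had 22.9 to 58.1 FPKM in parthenotes, 8.12 to 17.3 FPKM in 8-cell IVF and 1.82 to 20.4 FPKM in late embryos. The others had parthenote medians of 4.89 and 2.54 FPKM. At each of the 12 loci gained without late replicate 1, that library was the highest late library, which the way they were picked requires. The most abundant of these loci had 287 to 677 FPKM in parthenotes, 160 to 280 in 8-cell IVF and 585 in late replicate 1.

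The most abundant locus of all stood at 1362 to 4626 FPKM in parthenotes with a median of 2783, at 882 to 2485 FPKM in 8-cell IVF with a median of 1323, and at 17.8 to 3319 FPKM in late embryos with a median of 590. The next had medians of 1303, 498 and 558 FPKM. In both, the groups overlapped and late replicate 1 was the highest late library. Without these 2 loci the share of the rest was 3.995% ± 1.22 (SD, n = 11) in parthenotes, 1.48% ± 0.382 (SD, n = 8) in 8-cell IVF and 0.907% ± 0.680 (SD, n = 8) in late embryos.

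At the other end, 9 loci had both IVF medians at 0, with parthenote medians of 2.18 to 9.49 FPKM. All 9 were assembled as 1 transcript, were at 0 in late replicate 1 and were above 0 in at least 1 of the 16 IVF libraries. Each was also at 0 in at least 1 parthenote. Of the 16 loci whose late median was at least 2 times the 8-cell IVF median, 12 were low in late replicate 1, and their parthenote medians ran from 2.05 to 12.5 FPKM.

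The loci of the set were assembled more simply than the eligible loci. A single transcript was listed for 231 (44.9%), against 26.6% of the eligible loci, 2 to 4 transcripts for 210 (40.9%), against 38.2%, and 5 to 19 for 73 (14.2%), against 35.2%. The share with 1 transcript was 49.7% among the loci low in late replicate 1 and 42.7% among the others. Transcripts of 1 locus can share reads, so the sum may count a read more than once; 42 of the 514 loci held transcripts of equal values, and with those counted once 509 loci met the rule, all among the 514. The leading transcript, with the highest group mean, was compared at the 283 loci with several transcripts that were above 0 in each group. It differed between parthenotes and 8-cell IVF at 27 (9.54%), against 7.60% of 7535 eligible loci. Between parthenotes and late embryos it differed at 29 (10.2%), against 14.4%. A change of the leading transcript thus accompanied few of the raised loci. No locus of the set had the same values as another locus in every library, against 6767 such loci in the table.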

How the data were processed

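RNA was made into libraries with SMART-Seq v4 and Nextera XT, per the labels' protocols. The authors deposited FPKM values for 173449 assembled transcripts in 27 libraries. The submitters' processing notes name FastQC 0.10.1, TopHat2 2.1.0 and StringTie; the sources used here give no build, annotation or settings, and do not say whether strand was kept. Of the locus identifiers, 0 matched the RefSeq table of ARS-UCD2.0, so no sequence is printed.

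FPKM was summed per locus. The members, the lists and the alternatives were chosen with earlier results of these data known. For the check, loci were chosen on the odd-numbered replicates and tested on the even-numbered ones, and the reverse, with limma 3.58.1 (R 4.3.3) on log2(FPKM + 1), 3 groups in one fit, trend and robust moderation, two-sided tests and Benjamini-Hochberg adjustment at 0.05 over loci that reached 1 FPKM in 3 or more choosing libraries. This scale understates changes of low loci. FPKM keeps no read total, so no count test was run and no counting interval is given. Both steps were tested on simulated data. The 2 named loci per list follow a rule on ratios with 1 FPKM added. Alternatives were other pseudocounts, filters, scalings and locus values, a replicate block and leaving out libraries. Python 3.11.15, numpy 2.4.6 and pandas 2.3.3 were used. Depth relative to the median library came from whole-read steps among transcripts of 0.05 to 5 FPKM above 0 in at most 9 libraries, and 93.2% of library pairs came within 0.03 log2 of the depths fitted to them.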

Additional observations from a re-analysis of the deposited data

Results flagged for a closer look

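In 6 of 20 groups of 4 to 10 libraries that were examined, 1 library stood apart from the rest by Dixon's criterion. Chance meets this criterion in about 1 of 20 groups only where values follow a normal distribution. Here it was applied to FPKM and shares as they stand, and such values can be skewed. For MSTRG.29106 the late mean was 9.73 FPKM and the late median 1.27 FPKM. The 6 flags therefore cannot be read as an excess over chance, and the 20 groups share libraries and loci. Late 8-cell IVF replicate 1 stood apart in 2 of them: the share of its FPKM sum held by the even list was 2.33%, and MSTRG.8058 stood at 201 FPKM, each the highest of the late libraries. Parthenote replicate 4 stood apart with 8.05% of its FPKM sum held by the odd list. Late replicate 4 was the highest late library for MSTRG.29106 at 46.8 FPKM and for MSTRG.106993 at 8.26 FPKM, and late replicate 3 was the highest for MSTRG.178 at 7.70 FPKM. The cause of these values was not tested.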

How the results depend on the processing

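The number of loci that met the rule was 1208 at a fold of 1.5, 136 at a fold of 3, 972 at a parthenote median of 1 FPKM and 255 at 5 FPKM, and 481 to 580 when 1 library was left out. Median-of-ratios factors gave 368 loci, all among the 514, and quantile normalization 362, of which 351 were shared.

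For parthenote against 8-cell IVF the odd list had 0 calls, or 0 to 1 when 1 library was left out. The even list had 0 calls with pseudocounts of 0.1 or 5, without the filter, with a filter of 5 FPKM, with the highest transcript or with a replicate block, 87 without late replicate 1 in choosing and testing, and 0 to 87 when 1 tested library was left out. For parthenote against late embryos the odd list had 228 calls without the filter (38.8% against 29.4% of the eligible loci), 250 with a filter of 5 FPKM (82.8% of the loci past it, against 45.5%), 239 with median-of-ratios factors (61.3% against 38.3%) and 296 to 421 when 1 library was left out. The even list had 123 without the filter (15.5% against 17.5%), 194 with the filter of 5 FPKM (49.4% of the loci past it, against 36.5%), 196 with quantile normalization (35.1% against 31.7%), 248 with a pseudocount of 5 (31.2% against 30.8%) and 187 (23.5% against 24.4%) to 422 (53.1% against 48.2%) when 1 library was left out. For loci lower in late than in 8-cell IVF embryos the odd list had 115 with a pseudocount of 5 (19.6% against 37.3%), 81 without the filter (13.8% against 28.5%), 94 with median-of-ratios factors (24.1% against 35.04%) and 115 to 204 when 1 library was left out. The even list had 37 without the filter (4.65% against 9.53%), 212 without late replicate 1 (26.7% against 42.3%), and 73 to 212 when 1 library was left out. Lists chosen under other scalings hold other numbers of loci, and without the filter more loci are adjusted for; the cause of the other shifts was not tested.

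Under the other scalings parthenotes exceeded late embryos, over all loci tested, by a median log2 of 0.33 to 0.56 in the even replicates and 0.18 to 0.37 in the odd ones, with list medians of 1.38 to 1.5 and 0.91 to 0.95. No value changed sign with its call. The replicate block gave 391 calls for parthenote against late embryos in the odd list and 221 in the even list (27.8% against 24.8% of the eligible loci). The same-number libraries correlated at -0.330 to 0.2202 over 24 pairs, with 6 over 0.1 and 7 of 48 libraries best with their own number, so the numbers did not pair the libraries. Among the 4 named loci 19 of the values under alternatives fell short of the threshold that the reported value passed, all for MSTRG.29106 or MSTRG.8058, and 2 passed it newly. Unknown read totals limit what can be said of loci near 0.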
